A study of Mus musculus with 195 samples.

Results

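Polyadenylation sites that lay in an exon upstream of the terminal exon of their gene were examined in single mouse embryonic stem cells and neural stem cells. A site was a position on a gene to which the deposited isoform table assigned transcript 3′ ends, and it was taken when the table classed it as lying in an upstream exon and named an Ensembl mouse gene as its host. The rule found 3330 sites in 1818 host genes. The table held 94587 sites in all, of which 72510 were sense sites on genes, and 19397 genes, so that 9.37% of the genes had at least 1 such site. The rule used no measured value.

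The 3 populations were derived from the 46C line, a mouse embryonic stem cell line with a green fluorescent protein reporter in the Sox1 gene, for which NSC had been sorted during their derivation. ESC-2i were embryonic stem cells kept in 1 μM PD0325901 (an inhibitor of MEK), 3 μM CHIR99021 (an inhibitor of GSK3) and 10 ng/ml LIF. ESC-FCS were embryonic stem cells kept in 10% FBS and 10 ng/ml LIF. NSC were neural progenitor cells derived from embryonic stem cells and kept with the growth factors EGF and bFGF. Their medium held the supplements N2 and B27, as did that of ESC-2i. All cells were sorted as G1 cells, 48 per population in 2 library batches of 24, and each population was taken as a single culture, since no source names separate ones. The 107 cells with at least 1000 molecules on genes that the deposited gene table also holds were used for levels, namely 33 ESC-2i, 33 ESC-FCS and 41 NSC. A further 48 ESC-FCS control cells, a pool of 48 ESC-FCS cells and 2 pools of 48 ESC-2i cells had been made apart and served as a check. Because no population had a replicate culture, populations were compared by value without a test, and the intervals given are exact 95% Clopper-Pearson intervals that cover counting error only. Markers fitted the labels in the 3 populations: the counts in ESC-2i, then ESC-FCS, then NSC were 172, 68 and 0 molecules for Nanog, while Fabp7, a fatty acid binding protein of radial glia, had 1, 1 and 376, and Olig2 had 1, 0 and 74. The marker Pou5f1 was thinly counted, with 19, 4 and 0 molecules, and markers of neurons and glia summed to 67 molecules in NSC, 59 of them from Map2.

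Most mRNAs end in the terminal exon, where the cleavage machinery recognises a hexamer such as AATAAA a short way upstream of the cut and poly(A) polymerase adds the tail. An end in an exon further upstream would leave a transcript with a cut reading frame and usually no stop codon, and such transcripts are known substrates of the nonstop decay pathway, in which the exosome degrades the RNA. A cDNA primer of T bases can also anneal to a run of A inside a transcript, which then reads as an end, and the library method used such a primer.

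The bases around the most used sites show what most of them shared. Each sequence below runs 5′ to 3′ on the strand of the transcript in the GRCm38 build, was read from GENCODE transcripts, and has the 15 bases after the site in capitals. They belong to the sites with many molecules (Psmd1, Pa2g4, Sugt1, Hnrnpc) or to sites described below for a difference between populations (Arpc2, Smarca4, Prrc2c).
Psmd1, chr1:86130690-86130719, plus strand: tgcccctctggaagtACCAAAAGAAAAAGA
Pa2g4, chr10:128559067-128559111, minus strand: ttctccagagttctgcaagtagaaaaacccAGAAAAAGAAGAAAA
Sugt1, chr14:79624874-79624918, plus strand: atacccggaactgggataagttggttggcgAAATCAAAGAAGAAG
Hnrnpc, chr14:52075632-52075676, minus strand: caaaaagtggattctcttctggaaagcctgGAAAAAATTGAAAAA
Arpc2, chr1:74264398-74264442, plus strand: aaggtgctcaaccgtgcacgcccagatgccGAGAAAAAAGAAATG
Smarca4, chr9:21642536-21642580, plus strand: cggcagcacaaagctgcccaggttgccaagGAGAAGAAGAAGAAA
Prrc2c, chr1:162705722-162705766, minus strand: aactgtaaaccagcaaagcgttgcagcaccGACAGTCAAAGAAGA
The capitals hold 11, 12, 10, 11, 10, 10 and 8 A of 15 bases, in the order of the lines. Pa2g4, at 12, had as many A as any site in an upstream exon.

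A smaller set of sites had few A after them and the hexamer AATAAA before them. In the following sequences the capitals mark that hexamer.
M6pr, chr6:122314037-122314066, plus strand, ending at the site: ctatgtaaagAATAAAacaagttcttgacc
Pofut2, chr10:77260769-77260813, plus strand, with 15 bases after the site: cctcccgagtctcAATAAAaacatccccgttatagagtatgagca
Zmym2, chr14:56957037-56957081, plus strand, with 15 bases after the site: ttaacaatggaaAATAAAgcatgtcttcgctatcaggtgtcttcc
C130036L24Rik, chr1:86359921-86359950, plus strand, ending at the site: ctgagagctcctAATAAAagcagttgtgcg
From the end of the hexamer to the site lay 14 bases in M6pr, 11 in Pofut2, 12 in Zmym2 and 12 in C130036L24Rik.

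The sites were mostly rare. In the 144 cells they held 6226 molecules, each a molecule with its own barcode, and 76286 reads. A single molecule was counted at 2192 sites (65.8%), 2 to 9 molecules at 1088 and 10 or more at 50, and those 50 sites held 836 molecules (13.4%). Of the 3330 sites, 2237 were seen in 1 cell and 168 in at least 5 cells. A threshold of 10 molecules separated 7 sites with exactly 10 from 8 sites with 1 fewer. The share of sites with 1 molecule was 50.7% in terminal exons, 21.7% within 10 nucleotides of an annotated transcript end and 83.0% in introns. Molecules at sites in upstream exons had been read 12.3 times on average, near the 12.6 of terminal exons and the 13.0 of annotated ends and above the 8.18 of introns.

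Sites lay in the coding part of the exons. The coding sequence held 3002 of them (90.2%), transcripts without a coding sequence 176, 5′ UTRs 95 and 3′ UTRs 36, while 12 fell in no exon of the annotation and 9 belonged to 8 genes that the annotation used here did not hold. They were spread over the coding sequence, with a median of 50.0% of it before the site (quartiles 28.9% and 72.6%), and the exon around them had a median length of 158 bases. Only 229 lay in exon 1 and 421 in the next to last exon. A total of 405 lay also in the last exon of another annotated transcript of the gene, and 92 were within 10 nucleotides of an annotated end of their own gene. Another gene on the same strand covered 50 sites, whose host is therefore uncertain. No site lay in the mitochondrial genome, whose genes are not spliced and have no upstream exon.

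Sites in upstream exons stood before A-rich sequence. Among the 2861 with at least 15 bases left in the exon, the median number of A in the next 15 bases was 9, and 1981 (69.2%) had 8 or more A. In terminal exons the median was 5 and 25.0% of 11531 sites had 8 or more, and over all 1036279 positions of the upstream exons that held the sites the median was 4 and 10.6% had 8 or more. Of the 47 sites with 10 or more molecules for which the bases lay in the exon, 44 (93.6%) had 8 or more A. No site in an upstream exon had more than 12. Reads from genome positions with a higher A content had been removed by the filter of the processing, and terminal A of a read had been trimmed before alignment, so that a recorded position can lie before A that the genome encodes. Whether ends before A-rich bases arose by cleavage or by priming inside the transcript was not tested.

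**Figure D1:**
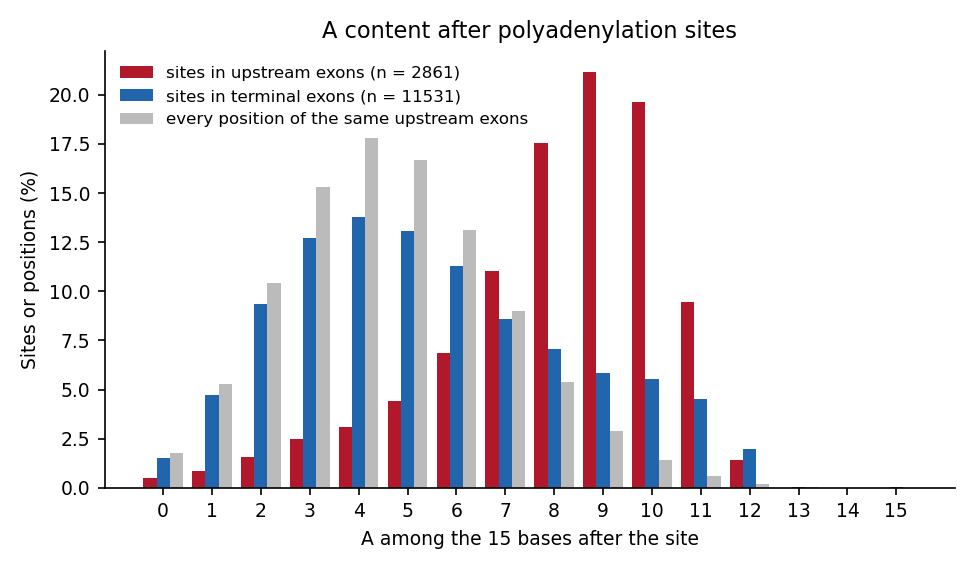
Number of A among the 15 bases after a site (x axis) against the percentage of sites or positions (y axis), for sites in upstream exons, sites in terminal exons and all positions of the same upstream exons. Sites in upstream exons have a median of 9 A, against 5 for terminal exons and 4 for all positions.

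A-rich sites also held most of the molecules. Where the exon ended within the window, the bases were read on into the next exon of the transcript, and on that reading 2236 sites with 8 or more A (A-rich) held 4690 molecules, 379 sites with 7 A held 540 and 694 sites with 6 or fewer (A-poor) held 964. A-rich sites made up 45 of the 50 sites with 10 or more molecules and 155 of the 168 seen in at least 5 cells. Among A-poor sites 79.7% had 1 molecule and 23.2% lay outside coding sequence, against 60.1% and 5.59% of A-rich sites. A-rich sites were therefore both more numerous and better filled, and the classes of A content differed in where they lay.

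In the reading frame, the A-rich bases fell on codons for lysine and glutamate, charged amino acids with A-rich codons. Of the 14940 codons in the 5 codons after 2988 coding sites, 29.3% encoded lysine and 16.4% glutamate, against 7.09% and 8.32% over the whole coding sequences of the same transcripts. After the 45 coding sites with 10 or more molecules 43.6% of codons encoded lysine. After A-poor sites the share was 9.74%.

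Few of these sites had a polyadenylation signal. The hexamers AATAAA and ATTAAA were searched in the 40 bases before each site, on the transcript strand only, and 226 of 3294 sites (6.86%, interval 6.02 to 7.78) held 1 of them. Within 10 nucleotides of an annotated end 78.6% of 12646 sites held 1, and in terminal exons 37.8% of 11660. Over all 1069727 positions of the same upstream exons 3.60% had a signal in the window before them. Under a wider set of 13 hexamers the share was 30.3% for the sites and 21.9% for all positions.

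The signal was more frequent where A were few. It stood before 5.29% of A-rich sites (interval 4.40 to 6.30) and 12.6% of A-poor sites (10.2 to 15.3). Among A-poor sites with at least 2 molecules it stood before 27 of 140 (19.3%, 13.1 to 26.8), and with at least 3 molecules before 13 of 45 (28.9%, 16.4 to 44.3), while A-rich sites with at least 3 molecules had it in 4.29%. In those 13 sites the hexamer ended 8 to 20 bases before the site in 12, the usual spacing at annotated ends, where 82.8% fell in that range. Sites at an annotated end of their own gene had a signal in 7 of 92, and 76 of the 92 were A-rich.

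**Figure D2:**
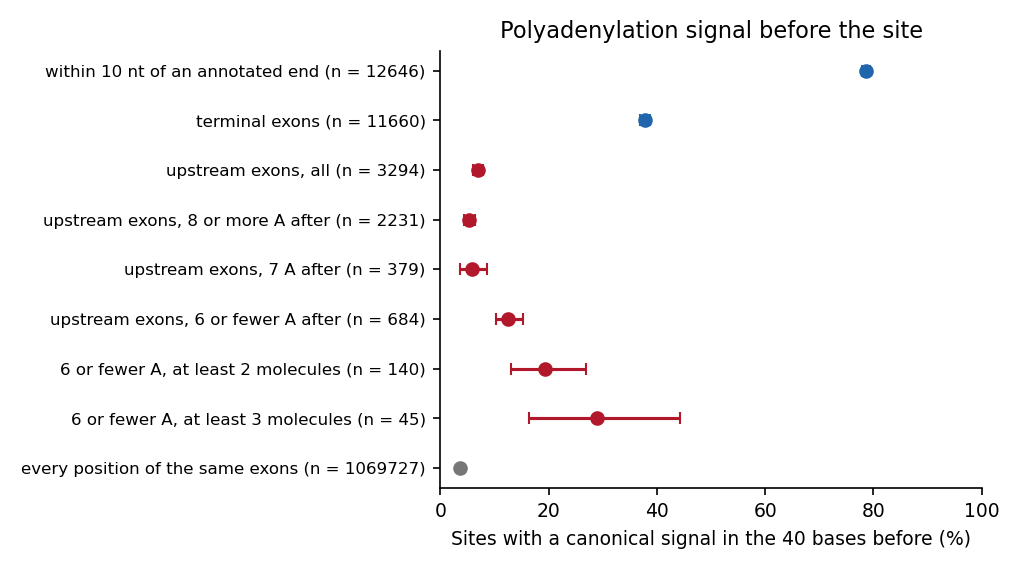
Percentage of sites with AATAAA or ATTAAA in the 40 bases before them (x axis), by class of site, with exact 95% intervals of counting error as bars. Sites in upstream exons lie at 6.86%, those with 6 or fewer A and at least 3 molecules at 28.9%, and sites within 10 nucleotides of an annotated end at 78.6%.

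The A-poor sites with a signal and the most molecules were few, and are given here after their values were seen. M6pr, the receptor that carries lysosomal enzymes marked with mannose 6-phosphate, had 10 molecules in 10 cells and 166 reads at chromosome 6, position 122314066, in exon 3 of a noncoding transcript, where ESC-2i had 5 of 34 molecules of the gene, ESC-FCS 1 of 15 and NSC 4 of 7. Pofut2, an enzyme that adds O-fucose to secreted proteins, had 9 molecules in 7 cells at its coding exon 2, where ESC-2i had 7 of 13 molecules of the gene, ESC-FCS 2 of 5 and NSC 0 of 5. Zmym2, a zinc finger protein of repressive chromatin complexes, had 6 molecules in 6 cells, all of them among 22 molecules of NSC and all in NSC batch 1, with 0 of 21 in ESC-2i and 0 of 18 in ESC-FCS. The noncoding gene C130036L24Rik had 6 of its 10 molecules at the site shown. Each site was seen in at least 1 library made apart. At the M6pr site the control cells had 3 of 26 molecules of the gene and the ESC-FCS pool 1 of 25. The ESC-2i pools had 0 of 56 and 1 of 63 there. At the Pofut2 site the control cells had 1 of 9 and the ESC-FCS pool 1 of 8. The ESC-2i pools had 1 of 86 and 0 of 96, against 7 of 13 in the ESC-2i cells. At the Zmym2 site the control cells had 4 of 21 and the pools 0. At that of C130036L24Rik the ESC-FCS pool had 1 of 1.

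Some A-poor sites had been read about once per molecule. Of the 50 sites with 10 or more molecules, 3 had fewer than 1.1 reads per molecule, against 139 of 9364 sites of every class with at least 10 molecules (1.48%). In introns it was 10 of 61 and downstream of annotated ends 25 of 449, so that the rate was not particular to upstream exons. They were a site of Rpl31 with 27 molecules and 27 reads, a site of Rps13 with 19 and 20, and a site of Slk, a kinase, in the 5′ UTR with 14 and 14. Rpl31 and Rps13 encode proteins of the ribosome, and both sites were the last base of an exon, so that the sequences end at a splice junction.
Rpl31, chr1:39371037-39371066, plus strand, ending at the site: taacttacgtgcctgttaccacattcaaaa
Rps13, chr7:116332379-116332408, minus strand, ending at the site: taagcgggtgctcccacctaattggaaata
In all 70 sites lay at the last base of their exon, with 153 molecules and 5.27 reads per molecule. Together with M6pr, these 3 were the 4 A-poor sites with 10 or more molecules. Sites with at least 15 bases left in the exon had 12.5 reads per molecule, and what gave the low read counts was not tested.

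Sites with more molecules were seen again more often in libraries made apart. Within 12 nucleotides, the control cells or the pools held a molecule for 15.8% of sites with 1 molecule, 32.7% with 2, 54.4% with 3 to 9 and 88.0% with 10 or more (44 of 50). Sites in terminal exons stood at 37.6%, 63.8%, 85.3% and 99.3% in the same steps and intron sites at 6.44%, 18.2%, 35.8% and 80.3%. A-rich sites with 1 molecule were seen again in 20.3% and A-poor ones in 6.33%. Of the molecules that the libraries made apart had in upstream exons, between 39.8% (control cells) and 59.7% (an ESC-2i pool) lay within 12 nucleotides of a site described here. Their sites had 8 or more A in 65.4% to 74.8%, and a signal in 6.21% (control cells), 9.64% (ESC-FCS pool), 10.2% and 13.7% (ESC-2i pools).

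Host genes were long genes with many A-rich positions. Of 6061 genes with at least 20 molecules in the cells used, 1288 (21.3%) had a molecule at a site in an upstream exon. Among the coding ones, 1275 host genes had a median of 15 exons and 2043 coding bases, while 4366 other genes had 8 exons and 1143 coding bases. Host genes had a median of 122 positions with 8 or more A in the next 15 bases upstream of the last exon, and the others 24, and the median molecules were 56 and 43. Genes counted more deeply were more often hosts, at 2.22% of genes with 1 to 9 molecules, 15.9% with 10 to 99 and 28.6% with 100 or more.

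In 4 groups of equal size by the number of A-rich positions, hosts made up 3.61%, 9.93%, 19.8% and 57.1% of the genes. The share of molecules at sites in upstream exons was 0.0511%, 0.140%, 0.541% and 4.06%, and it also rose per length, from 0.764 to 13.0 molecules per 1000 molecules and kilobase of upstream exon. Across the 5641 genes the share followed the number of A-rich positions with a Spearman rho of 0.50 and the length of the upstream exons with 0.34, and both measures were themselves related (0.69). Genes are not independent replicates, and these values describe the libraries. In the group with the fewest A-rich positions NSC had 0.101%, above the 0.0379% of ESC-2i and the 0.0419% of ESC-FCS, and in that with the most it had 4.62%, against 3.68% and 4.27%. In the groups between them ESC-FCS was highest, with 0.179% and 0.599%, against 0.139% and 0.580% in NSC and 0.118% and 0.489% in ESC-2i.

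**Figure D3:**
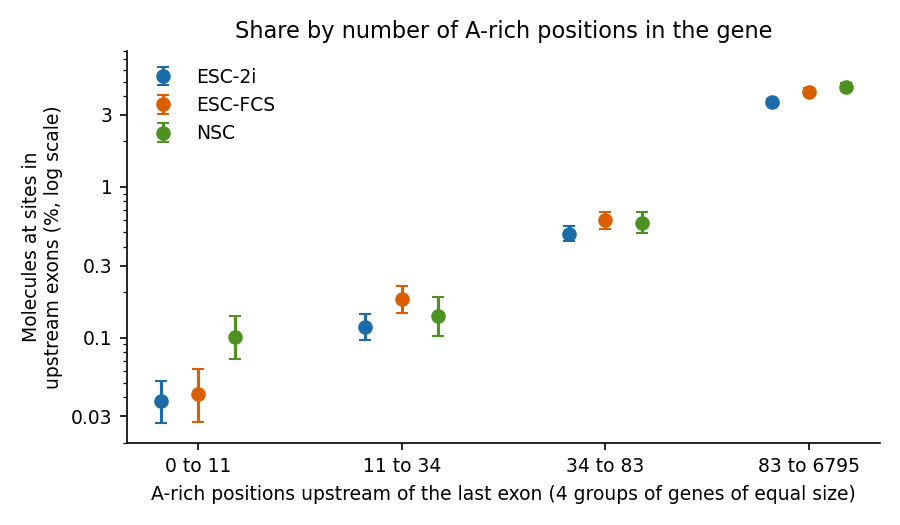
Molecules at sites in upstream exons as a percentage of molecules on genes (y axis, log scale) in 4 groups of genes by the number of A-rich positions upstream of the last exon (x axis), for ESC-2i, ESC-FCS and NSC, with exact 95% intervals. In every population the share goes up with each group, and over the 3 populations together it goes from 0.0511% to 4.06%.

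Several genes had many sites. Tpr, a protein of the nuclear pore basket, had the most, with 20 sites in 14 exons and 41 of 139 molecules. Rif1, which acts in replication timing and at double-strand breaks, had 18 sites and 49 of 158 molecules. Macf1, a crosslinker of actin and microtubules, had 17 sites, and Ankrd11, a chromatin regulator, and Ktn1, a kinesin-binding protein of the endoplasmic reticulum, had 16 each. The ends of these genes were thus spread over many positions, and 1192 of the 1818 hosts had only 1 site, 626 had 2 or more and 117 had 5 or more.

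For most hosts, ends in upstream exons were a minor share of the gene's molecules. The median was 3.57% over the 1288 genes, 256 genes were at 10% or more, 97 at 20% or more and 12 at 50% or more. The highest share was that of Bod1l, a protector of stalled replication forks, with 22 of 31 molecules over 14 sites (71.0%, interval 52.0 to 85.8), of which ESC-2i had 9 of 10, ESC-FCS 12 of 18 and NSC 1 of 3. Kif5b, the heavy chain of kinesin-1, had 59 of 97 (60.8%), with 30 of 43, 16 of 24 and 13 of 30 in the same order. Nipbl, the loader of cohesin on chromatin, had 34 of 61 (55.7%) over 10 sites, with 23 of 34, 7 of 13 and 4 of 14. Other genes with a share above 50% follow. Casp8ap2, which acts in histone gene expression, had 12 of 22, Ankrd11 37 of 69, Rev3l, the catalytic subunit of DNA polymerase zeta, 15 of 28, and Phip, a bromodomain protein, 27 of 51. Ccdc88a, an actin-binding protein, had 11 of 21, and Sgo2a, a protector of centromeric cohesin, 16 of 31. Their intervals all overlapped that of Bod1l, so that the order among these genes was not resolved.

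The 10 best filled sites of separate genes held from 20 to 52 molecules in the cells used, 9 in A-rich sequence and 1, that of Rpl31, at an exon end. The most molecules lay at a site of Kif5b on chromosome 18 (position 6222800, minus strand, exon 11 of 26), with 52 molecules, of which ESC-2i had 27 among 43 of the gene, ESC-FCS 14 among 24 and NSC 11 among 30. A gene on the other strand overlaps it. All 6 library batches had molecules there, between 3 and 15 each. Psmd1, a subunit of the proteasome's regulatory particle, followed with 45 molecules in exon 21 of 25 (23 of 131, 11 of 51 and 11 of 39), again in all batches, between 4 and 12 each. Pa2g4, a regulator of growth that binds RNA, had 35 in exon 11 of 12 (19 of 276, 13 of 147 and 3 of 73). Both sites thus lay in the last part of the coding sequence, at 85.9% and 93.0% of its length.

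Sf3b1, of the spliceosomal U2 particle, had 34 molecules (18 of 167, 4 of 63 and 12 of 64), at a site 26 nucleotides from the end of an annotated retained-intron transcript. Sugt1, a co-chaperone of HSP90, had 33 at the very end of such a transcript, of which ESC-2i had 27 among 217 molecules of the gene, ESC-FCS 3 among 61 and NSC 3 among 25. Eif5, the GTPase activator of translation initiation, had 20 molecules (9 of 62, 3 of 35 and 8 of 29), 3 nucleotides from the end of another. In Npm1, an abundant nucleolar protein, 29 molecules were 0.838% of the gene. In Setd5, a chromatin regulator, 29 molecules were 41.4% (19 of 42, 5 of 17 and 5 of 11), and in Nucks1, a nuclear DNA-binding protein, 21 were 13.0%. The same number of molecules was therefore a trace of 1 gene and a large part of another.

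The libraries made apart held most of these sites, with unlike shares. At the Pa2g4 site the ESC-2i pools had 13 of 671 and 10 of 732 molecules, the ESC-FCS pool 9 of 177 and the control cells 16 of 219. At the Kif5b site the ESC-2i pools had 43 of 48 and 34 of 54 molecules, against 1 of 11 in the ESC-FCS pool and 3 of 27 in the control cells. At the Psmd1 site the ESC-2i pools had 71 of 282 and 101 of 269, while the ESC-FCS pool had 0 of 30 and the control cells 0 of 39. The Kif5b and Psmd1 sites were thus as large or larger in the ESC-2i pools than in the ESC-2i cells. They were small or not seen in ESC-FCS libraries made apart. The ESC-FCS cells of the main set had them in 14 of 24 and 11 of 51 molecules. The other sites were smaller in the ESC-2i pools than in the ESC-2i cells. Sugt1 had 4 of 231 and 0 of 115 in the pools, against 27 of 217. Setd5 had 7 of 53 and 8 of 74, against 19 of 42. Nucks1 had 1 of 83 and 0 of 95, against 15 of 94. Npm1 and Rpl31 had 0 in both pools.

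As a share of all molecules on genes, ends in upstream exons were rare in every population. The 6113 such molecules of the cells used were 0.819% of 746558, against 57.4% within 10 nucleotides of an annotated end, 15.0% elsewhere in terminal exons and 1.95% in introns. ESC-2i had 0.715% (2633 of 368225, interval 0.688 to 0.743), ESC-FCS 0.886% (2008 of 226558, 0.848 to 0.926) and NSC 0.970% (1472 of 151775, 0.921 to 1.02). The share in NSC was higher than in ESC-2i, with ESC-FCS between them. Counting only sites with at least 10 molecules put ESC-FCS lowest (0.0887%, against 0.116% in ESC-2i and 0.129% in NSC), and without genes of cytosolic ribosomal proteins NSC (1.073%) fell just below ESC-FCS (1.075%). The intervals of ESC-2i did not overlap those of the others, whereas those of ESC-FCS and NSC met.

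The library batches of a population differed about as much as the populations. ESC-2i had 0.816% in batch 1 and 0.625% in batch 2, ESC-FCS had 0.988% and 0.749%, and NSC had 1.03% and 0.898%. Batch 1 was higher than batch 2 in all 3 populations, and batch 1 of ESC-2i was above batch 2 of ESC-FCS. Within each batch number the order was the same, ESC-2i lowest and NSC highest. Batches and populations share no library, so within-batch values of 1 population against another could not be had.

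Cells varied more widely. In ESC-2i the lowest, median and highest share of a cell was 0.191%, 0.600% and 1.30%. ESC-FCS cells had 0.275%, 0.757% and 1.67% and NSC cells 0.284%, 0.779% and 2.27%, and the populations overlapped over most of their range. No cell was at 0. The depth behind a cell's share was a median of 10852 molecules on genes in ESC-2i (5342 to 21038), 6368 in ESC-FCS (1077 to 14803) and 3280 in NSC (1232 to 9031), and the molecules in upstream exons had medians of 64, 46 and 29. The share did not follow the depth of a cell closely within populations (Spearman rho 0.04 over 33 cells, 0.12 over 33 and 0.20 over 41).

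The libraries made apart had lower shares. The ESC-FCS control cells had 0.665% (interval 0.632 to 0.699) and the ESC-FCS pool 0.409% (0.380 to 0.440), both below the 0.886% of the ESC-FCS cells, and the ESC-2i pools had 0.323% and 0.322%, below the 0.715% of the ESC-2i cells. Libraries of ESC-FCS thus ranged from 0.409% to 0.886%, a wider range than that of the populations. Introns also held a lower share in all of them, 0.882% to 0.952%, against 1.73% to 2.27% in the main set. Reads per molecule in upstream exons were 6.63 in the control cells, 7.17 in the ESC-FCS pool and 2.63 and 4.16 in the ESC-2i pools, and 11.1 to 14.5 in the main set, and their part in the difference was not tested.

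**Figure D4:**
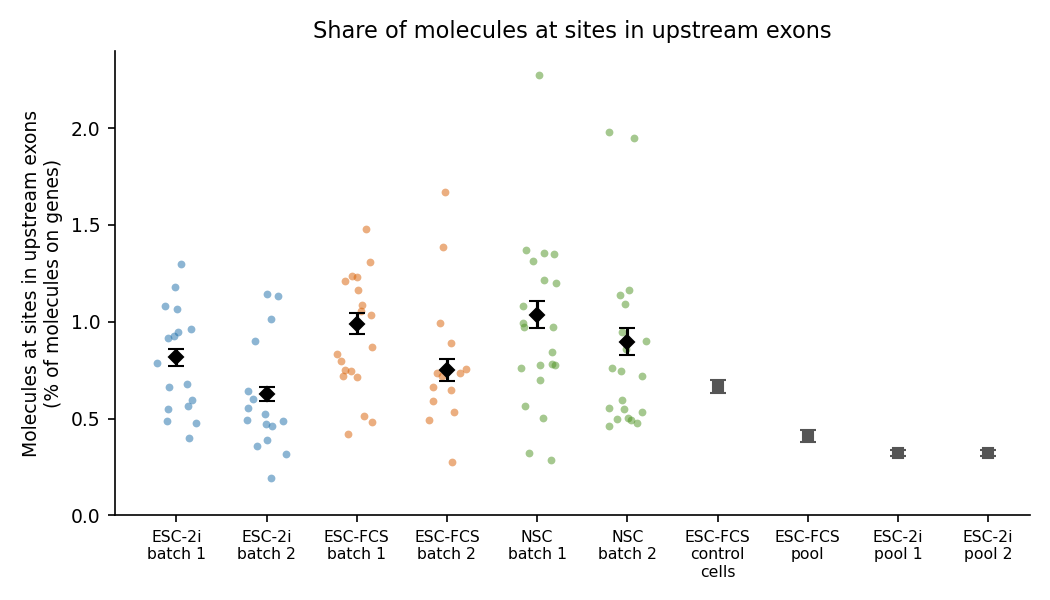
Molecules at sites in upstream exons as a percentage of molecules on genes (y axis) for each library batch and for the libraries made apart (x axis). Points are single cells, diamonds and squares are pooled shares with exact 95% intervals, and the pooled shares run from 0.322% in an ESC-2i pool to 1.03% in NSC batch 1.

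In every population most sites stood before A-rich bases. Of the sites seen in ESC-2i 72.0% had 8 or more A, of those in ESC-FCS 73.2% and of those in NSC 70.9%. A-rich sites held 77.3% (interval 75.6 to 78.9), 75.5% and 71.9% (69.5 to 74.2) of the molecules in upstream exons. The lower value in NSC came from batch 1. Of molecules on genes, A-rich sites held 0.709% in NSC batch 1 (all sites 1.03%) and 0.684% in batch 2 (all sites 0.898%). In ESC-2i they held 0.622% in batch 1 (all sites 0.816%) and 0.490% in batch 2 (all sites 0.625%). The A-rich part of NSC batch 2 was thus close to that of ESC-2i batch 1. A signal stood before 8.29%, 6.15% and 6.46% of the sites. Of molecules on genes, A-poor sites held 0.106% for ESC-2i, 0.129% for ESC-FCS and 0.171% for NSC, the same order as all sites. Between the batches of NSC the A-poor share was 0.207% and 0.132%, and batch 2 of NSC therefore stood close to ESC-FCS, whose batches were at 0.134% and 0.124%.

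Most sites were seen in 1 population, as a site with 1 molecule must be. Of the sites with a molecule in the cells used, 2748 were seen in 1 population, 425 in 2 and 117 in all 3, and 36 of the 49 with 10 or more molecules were in all 3. Of 1535 sites in ESC-2i 70.9% were seen nowhere else, of 1444 in ESC-FCS 69.5% and of 970 in NSC 67.6%. The same was not counted for other classes of site, so these values are not read as a trait of upstream exons. Sites with 1 molecule made up 65.8% in upstream exons, 50.7% in terminal exons and 83.0% in introns. A site with 10 or more molecules in 1 population only was that of Prrc2c, a large protein of stress granules, shown above. Its 12 molecules lay in 7 NSC cells, among 31 molecules of the gene in NSC, with 0 of 46 in ESC-2i and 0 of 36 in ESC-FCS, and all 12 were in NSC batch 1. The control cells and the pools had 0 there.

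The share per gene was compared between populations where a gene had 20 or more molecules in each of the pair, and a difference of 10 percentage points or more was counted. The 3 comparisons share populations and are not independent of each other. Between ESC-FCS and ESC-2i, 32 of 1934 genes differed so (1.65%), 17 higher in ESC-FCS and 15 higher in ESC-2i. Between NSC and ESC-2i it was 33 of 1226 (2.69%), 26 of them higher in NSC. Between NSC and ESC-FCS it was 34 of 1088 (3.12%), 25 of them higher in NSC. NSC had the fewest molecules on genes, 151775 against 368225 in ESC-2i and 226558 in ESC-FCS. With at least 50 molecules of a gene in both, 1 of 388 genes differed so between NSC and ESC-2i. Between NSC and ESC-FCS it was then 2 of 351. The part of depth in these counts was not tested. Every pair of batches had the same direction in 16 of the 32, 17 of the 33 and 22 of the 34. Over all genes compared this held for 80, 53 and 58. The pooled values are made of these batches, so their directions are no separate check. Only 478, 312 and 269 of the genes compared had any molecule in an upstream exon, and the others could not differ. Among them no lean was seen in the comparisons with NSC, where 155 were higher and 157 lower against ESC-2i, and 137 and 132 against ESC-FCS, whereas 267 were higher in ESC-FCS than in ESC-2i and 210 lower. Single sites in upstream exons were set against single sites of every class, where 10 points are common. For ESC-FCS and ESC-2i, 2 of 26 sites in upstream exons passed, against 28.8% of 3285 sites of every class. For NSC and ESC-2i it was 7 of 20, against 33.8% of 2135, and for NSC and ESC-FCS 7 of 14, against 31.7% of 1812. A site entered with at least 10 molecules in the 2 populations together, so that some entered only through the population where they were high. The site of Prrc2c had 12 molecules in NSC and 0 in ESC-2i and ESC-FCS, and that of Arpc2 had 14, 0 and 1. Such sites lean to a difference by the way they entered. The counts over 26, 20 and 14 sites are therefore not read as above or below the background, and no difference from it was tested.

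Genes with the largest differences between ESC-FCS and ESC-2i came from several processes. Top2a, the topoisomerase that untangles DNA for mitosis, had 13 of 50 molecules in upstream exons in ESC-FCS (26.0%, interval 14.6 to 40.3) and 1 of 32 in ESC-2i (3.13%, 0.0791 to 16.2). By batch, ESC-FCS had 8 of 36 and 5 of 14, and ESC-2i had 1 of 15 and 0 of 17. At the sites given next, the libraries made apart did not repeat this difference. Their share over all sites of the gene was not computed. At its best filled site (position 99012075) the control cells had 2 of 46 molecules and the pools 0. At position 98995855 the ESC-2i pools had 3 of 80 and 7 of 79, against 0 of 46 in the control cells and 0 of 64 in the ESC-FCS pool. Emc2, of the complex that inserts membrane proteins into the endoplasmic reticulum, had 6 of 28 in ESC-FCS (21.4%) and 2 of 102 in ESC-2i (1.96%). Cox7c, a subunit of cytochrome c oxidase, had 7 of 46 (15.2%) and 0 of 75, where 0 allows up to 4.80%. Only for Emc2 and Cox7c among the 10 genes named for this comparison did the intervals not overlap. At the Emc2 site the libraries made apart had 0 molecules, among 34 of the gene in the control cells, 16 in the ESC-FCS pool and 127 and 76 in the ESC-2i pools. The 7 molecules of Cox7c lay in 4 cells, 6 of them in ESC-FCS batch 2, at the last base of an exon in the 3′ UTR, and each had 1 read.

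Mrps5, of the mitochondrial ribosome, was higher in ESC-2i, with 8 of 41 molecules in 7 cells (19.5%), all at 1 site in exon 4 and 4 in each batch, against 0 of 23 in ESC-FCS. The ESC-2i pools had 0 of 76 and 0 of 86 at that site, so that it was not seen again in libraries of the same population. Chd4, the ATPase of the NuRD complex, had 9 of 45 (20.0%) in ESC-2i and 1 of 24 in ESC-FCS, and Hsp90b1, the HSP90 of the endoplasmic reticulum, had 15 of 71 (21.1%) and 4 of 59. At positions 86698400, 86698352 and 86698333 of Hsp90b1 the ESC-2i pools had 2, 8 and 2 of 309 molecules and 1, 2 and 0 of 350. The control cells had 0, 2 and 3 of 64 there and the ESC-FCS pool 1, 0 and 2 of 53. The higher share in ESC-2i was thus not repeated over these sites in the libraries made apart. Nop14, of the machinery that makes the small ribosomal subunit, had 8 of 39 in ESC-2i and 1 of 22 in ESC-FCS, and the pseudogene Gm12346, whose reads may come from a near-identical gene, had 16 of 41 and 4 of 23. Zfp106, an RNA-binding zinc finger protein, and Mphosph8, of the HUSH silencing complex, were higher in ESC-FCS, with 10 of 37 against 6 of 54 and 6 of 23 against 4 of 32. The intervals of these 7 genes overlapped, which does not show that they did not differ.

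In NSC against ESC-2i the gene with the largest difference among those with 1 direction in all batches was Arpc2, a subunit of the actin-nucleating Arp2/3 complex. Its molecules in upstream exons were 14 of 48 in NSC (29.2%, interval 17.0 to 44.1) and 0 of 63 in ESC-2i (up to 5.69%), with 2 of 21 in ESC-FCS. The 14 molecules of NSC lay in 12 cells, 11 among 32 in batch 1 and 3 among 16 in batch 2, all at the site in exon 10 of 11 shown above. Of the libraries made apart, all of embryonic stem cells, the control cells had 1 of 25 molecules of the gene there, the ESC-FCS pool 1 of 31 and the ESC-2i pools 1 of 44 and 0 of 73. Ubr4, a large ubiquitin ligase, had 5 of 20 in NSC (25.0%) and 1 of 70 in ESC-2i (1.43%), also without overlap of the intervals, but the molecules were spread over several sites. Kif5b went the other way, with 13 of 30 in NSC (43.3%) and 30 of 43 in ESC-2i (69.8%), with overlapping intervals.

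The other genes given for this comparison also had overlapping intervals. Eprs, the tRNA synthetase for glutamate and proline, had 16 of 45 in 13 NSC cells (35.6%) and 8 of 61 in ESC-2i (13.1%). Ik, of the spliceosome, had 7 of 37 in NSC and 1 of 51 in ESC-2i, and Lamc1, the laminin gamma 1 chain, had 4 of 25 and 0 of 68. Ddx21, a nucleolar RNA helicase, had 3 of 22 and 0 of 23. Higher in ESC-2i were Sbno1, with 9 of 33 against 2 of 20, and Denr, a factor of translation reinitiation, with 4 of 27 against 0 of 27. Most of these genes were thus higher in NSC, the population with the fewest molecules on genes, at counts of 3 to 16 molecules.

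In NSC against ESC-FCS, all the genes given here had overlapping intervals. Higher in NSC were Ubr4 (5 of 20 against 1 of 27), Ankrd17, an ankyrin repeat protein (8 of 33 against 1 of 26), and Smarca4, the ATPase of the BAF remodelling complex (6 of 30 against 0 of 26). Arpc2, Ik and Psip1, a chromatin reader of transcribed genes, were also higher, Psip1 with 8 of 30 against 2 of 23. Kif5b, Emc2 (0 of 31 in NSC against 6 of 28) and Bclaf1, a nuclear RNA-binding protein (0 of 25 against 9 of 58), were lower. Smarca4 had molecules at its site in ESC-2i too, 3 of 43, and in each library made apart.

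**Figure D5:**
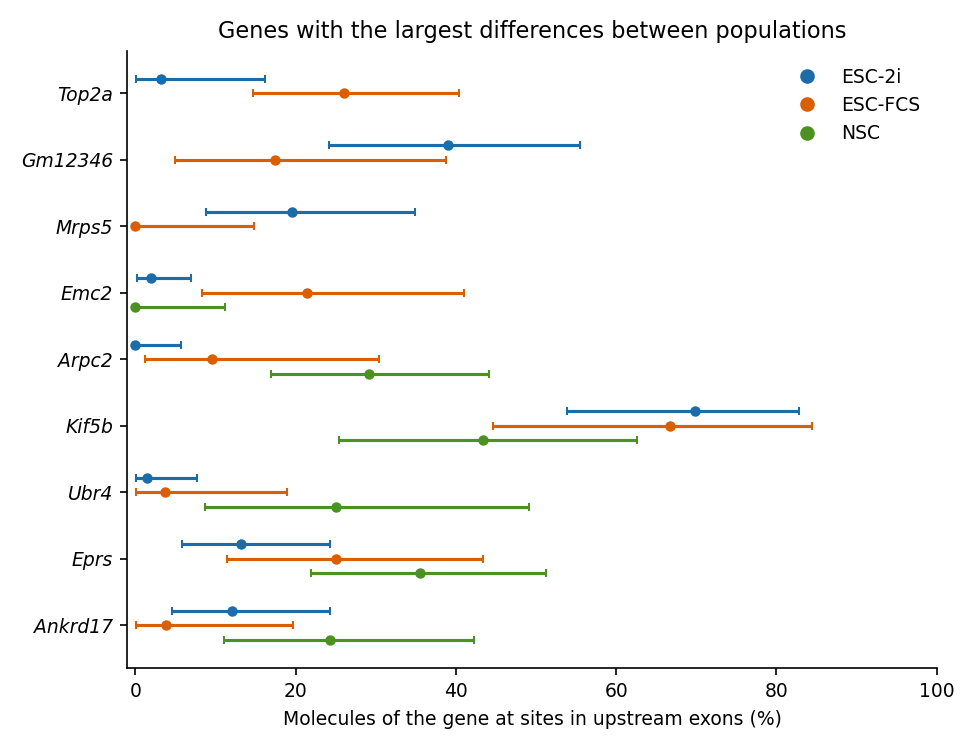
Molecules at sites in upstream exons as a percentage of the gene's molecules (x axis) for genes with large differences, in ESC-2i, ESC-FCS and NSC, with exact 95% intervals as bars and only where a population has at least 20 molecules of the gene. The bars of Arpc2 and Ubr4 in NSC lie clear of those in ESC-2i, and that of Emc2 in ESC-FCS lies clear of that in ESC-2i, while most others overlap.

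Gene lists showed where such ends fell among abundant transcripts. Genes of cytosolic ribosomal proteins, which are short, had 159 of 129828 molecules in upstream exons (0.122%), against 0.819% over all genes, in 24 of 82 genes. Rps24 had 31 of 3255 molecules, Rpl21 18 of 1912 and Rpl4 15 of 4232, while Rpl31 and Rps13, at the exon ends above, had 27 of 757 and 20 of 103. The share in NSC was 0.235% and in ESC-2i 0.0988%. The 34 genes of the mitochondrial genome had 0 of 18466 molecules, which is no measured level, since they are not spliced and have no upstream exon.

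Translation factors had 130 of 19946 molecules (0.652%) in 25 of 63 genes, led by Eif3a, a scaffold subunit of initiation factor 3, with 32 of 105, Eif5 with 24 of 126, Eif5b, which joins the ribosomal subunits, with 21 of 69, and Eif4g1, the scaffold of the cap complex, with 10 of 104. Chaperones had 102 of 14481 (0.704%) in 19 of 77 genes, with Hsp90b1 at 23 of 154 and the J-domain proteins Dnajc21 and Dnajc2 at 16 of 37 and 14 of 139. Hnrnp genes, which encode abundant nuclear RNA-binding proteins, had 51 of 3442 (1.48%), with Hnrnpu at 22 of 301, Hnrnpc at 14 of 360 and Hnrnpa2b1 at 10 of 263. Splicing factors of the SR family had 10 of 1986 (0.504%). The genes named here were picked for at least 10 such molecules, and the spread within lists was not compared with that between lists.

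Genes that make and survey 3′ ends also had such molecules, to be read against 0.819% of molecules over all genes. The lists count every member detected, for which 1806 of 19287 genes were hosts. Among genes with at least 20 molecules hosts made up 21.3%, and the lists also hold genes with fewer. Factors of cleavage and polyadenylation had 19 of 1131 molecules (1.68%) in 6 of 21 genes, 11 of them from Rbbp6, a ubiquitin ligase of the cleavage complex, with 11 of 54. Nonsense-mediated decay genes had 9 of 315 (2.86%) in 4 of 10 genes, genes of nonstop decay and the exosome 8 of 799 (1.00%) in 2 of 15, and the U1 particle, which guards transcripts against early cleavage, 1 of 276. Among cell type markers, pluripotency genes had 2 of 2177 molecules, and neural stem genes 12 of 958, all from Ptprz1, a receptor phosphatase of neural progenitors, with 12 of 61 molecules in NSC. Markers of neurons and glia had 0 of 105, and those of endoderm, mesoderm and trophoblast 0 of 49. A marker gene with a single exon could have none. These counts of 0 to 19 molecules leave the lists' shares wide, and no list was tested.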

How the data were processed

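Transcript 3′ ends were measured by BATSeq, a single-cell protocol with molecular barcodes, in 144 mouse cells, 48 control cells and 3 pools. The authors deposited counts of molecular barcodes and of reads for each site and cell, with no normalization. Per the methods and labels, the authors kept reads with terminal A, trimmed these, aligned with GSNAP to GRCm38, removed ambiguous and A-rich reads and reads before A-rich genome, merged similar barcodes of a gene and joined neighbouring positions into sites. HTSeq and R 3.0.2 are named in their processing notes. The files of the 144 single cells were identical to the isoform table, which was used. Positions in the table count from 0 and are printed from 1. Each batch used the same 24 cell barcodes. Control cells and pools had their own sites, which were matched within 12 nucleotides.

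Populations and batches were taken from the labels. Cells with at least 1000 molecules that the gene table holds entered the levels. Antisense sites were left out of a gene's molecules. Exons, coding parts, transcript ends and sequences came from GENCODE M21 on GRCm38, where 8 of the 1818 host genes were not found. Shares were computed in Python 3.11.15 with numpy 2.4.6, scipy 1.17.1 and pandas 2.3.3, and plots with matplotlib 3.10.9. The script was tested on simulated counts. Depth is given with the values as exact 95% intervals, which cover counting error only.

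The members and the gene lists were chosen with earlier results of these data known. Sites and genes were named by a fixed rule: the 10 sites with the most molecules, 1 per gene; for each pair of populations up to 10 genes with the largest difference among those with 20 molecules in both and 1 direction in all pairs of batches; the 10 genes with the highest share; and list genes with at least 10 molecules at such sites. Genes with the most sites, A-poor sites with a signal, sites read about once per molecule and Prrc2c were picked after their values were seen. Some genes that the rule names are not reported here. Alternatives covered cells, batches, units, limits, site classes and signals.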

Additional observations from a re-analysis of the deposited data

How the results depend on the processing

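The share of molecules at sites in upstream exons was higher in NSC than in ESC-2i under all 12 alternatives, ESC-FCS was above ESC-2i in 11 and NSC above ESC-FCS in 11. Batch 1 alone gave 0.816%, 0.988% and 1.03% for ESC-2i, ESC-FCS and NSC, and batch 2 alone 0.625%, 0.749% and 0.898%. Sites with at least 10 molecules alone gave 0.116%, 0.0887% and 0.129%, with ESC-2i above ESC-FCS. Leaving out sites with 8 or more A after them gave 0.163%, 0.218% and 0.275%. Without genes of cytosolic ribosomal proteins the shares were 0.852%, 1.075% and 1.073%, with NSC just below ESC-FCS, and over the 1066 genes with at least 20 molecules in all 3 populations, weighted alike, 0.409%, 0.439% and 0.580%. These last 2 alternatives were chosen after seeing the data. The share of NSC was 1.02% without the mitochondrial genome, 1.06% by reads and 0.910% as a mean over cells, and that of ESC-2i was 0.674% by reads and 0.677% without sites at an annotated end. The other values of these settings, and all values over 144 cells or over cells with at least 2000 molecules, moved less than counting error. The causes were not tested.

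The number of genes that differed by 10 percentage points followed its limits. For ESC-FCS against ESC-2i (32 genes) it was 15 in batch 1, 6 in batch 2, 136 with at least 10 molecules of a gene, 2 with at least 50, 3 at 20 percentage points and 4 with only sites of at least 10 molecules. For NSC against ESC-2i (33) it was 4, 6, 115, 1, 11 and 10 in the same order, and for NSC against ESC-FCS (34) it was 3, 3, 111, 2, 5 and 11. With a single batch fewer genes reach the limit of 20 molecules. The signal share of 6.86% was 30.3% with 11 further hexamers, 7.85% over 50 bases and 6.00% for sites with at least 10 molecules.

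No paired analysis was possible because each population was taken as 1 culture and no test was made. Differences between populations therefore cannot be told apart from differences between cultures or between their libraries, and for single genes, the counts leave wide intervals. Sites with 1 molecule, the most frequent kind, cannot be told apart between populations at this depth.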

Other observations

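Some genes with many sites in upstream exons were not among those named by share or by molecules. Ttn, which encodes the giant spring protein of striated muscle, had 12 sites in 11 exons and 16 of its 33 molecules there, although none of the populations is muscle, and a gene on the other strand overlaps several of its sites. Map1b, a microtubule-associated protein of neurons, had 12 sites in 1 exon, with 16 of 87 molecules, and Ncl, the nucleolar protein nucleolin, had 13 sites in 7 exons but only 28 of 556 molecules. These counts are over all 144 cells and were picked after their values were seen.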
